A study of Mus musculus with 9 samples.

Results

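The desmosome is the spot-like junction that ties the keratin filaments of neighbouring epithelial cells together, and 10 genes of it were followed here in the developing upper lip of the mouse. They were the rows of the deposited table whose gene symbols were Dsp, Jup, Pkp1, Pkp2, Pkp3, Dsg2, Dsg3, Dsc2, Dsc3 and Perp, and they were 10 of the 54532 genes listed. The tissue was the lambdoidal junction, where the facial prominences meet and fuse to form the upper lip and primary palate, dissected from C57BL/6J embryos at embryonic day 10.5 (E10.5), E11.5 and E12.5. All embryos were of this strain with no treatment or engineered allele, each library came from its own pool of embryos, and each of the 3 stages had 3 libraries of bulk RNA-seq. The comparisons asked how gene expression differed between consecutive stages (E11.5 vs. E10.5, then E12.5 vs. E11.5) and over the whole span, E12.5 vs. E10.5.

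In a desmosome, the cadherins (desmogleins and desmocollins) of adjoining cells bind each other outside the membrane. Inside, the armadillo proteins plakoglobin (Jup) and the plakophilins hold the cadherin tails, and desmoplakin (Dsp) links them to keratin. Perp is a tetraspan membrane protein needed for stable desmosomes in stratified epithelia and a known target of the transcription factor p63. Dsg2, Dsc2 and Pkp2 are typical of simple epithelia and of heart muscle, whereas Dsg3, Dsc3 and Pkp1 are typical of stratified epithelia such as the epidermis.

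The 9 libraries held 16581009 to 20836804 counts. Levels are CPM, counts scaled to the size of the library, on library sizes scaled by the trimmed mean of M values (TMM), and levels of different genes are set side by side only as CPM per kilobase of gene model. E10.5 replicate 3 stood apart from the other E10.5 libraries. All 12 pan-epithelial genes (Epcam, Krt8, Krt18 and others) were higher in it than in the mean of E10.5 replicates 1 and 2, by a median ratio of 1.55, and all 6 mesenchyme genes were lower, by a median ratio of 0.496. All 6 neuronal genes were higher in it as well (median ratio 1.64), and 1 of 5 endothelial genes was (median ratio 0.462). The gene-wise deviation of this library from the mean of the other E10.5 libraries also had a rank correlation of -0.546 with GC content across genes. The values were -0.26 to 0.274 in the libraries of E11.5 and E12.5, each against the others of its stage. They were 0.438 and 0.469 in E10.5 replicates 1 and 2, where the mean compared with holds replicate 3. Changes of the desmosome genes that rest on E10.5 are therefore given with and without it.

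The composition of the set differed between stages. Pkp1 and Dsc3 rose from E10.5 to E12.5, Dsg3 went from 0 counts to 46, Pkp2 fell, and Jup rose by less than a doubling. Dsp, Dsg2, Dsc2, Perp and Pkp3 did not pass the test from E10.5 to E12.5 with all libraries. Of these, Perp, Dsc2 and Pkp3 passed when E10.5 replicate 3 was left out.

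**Figure D1:**
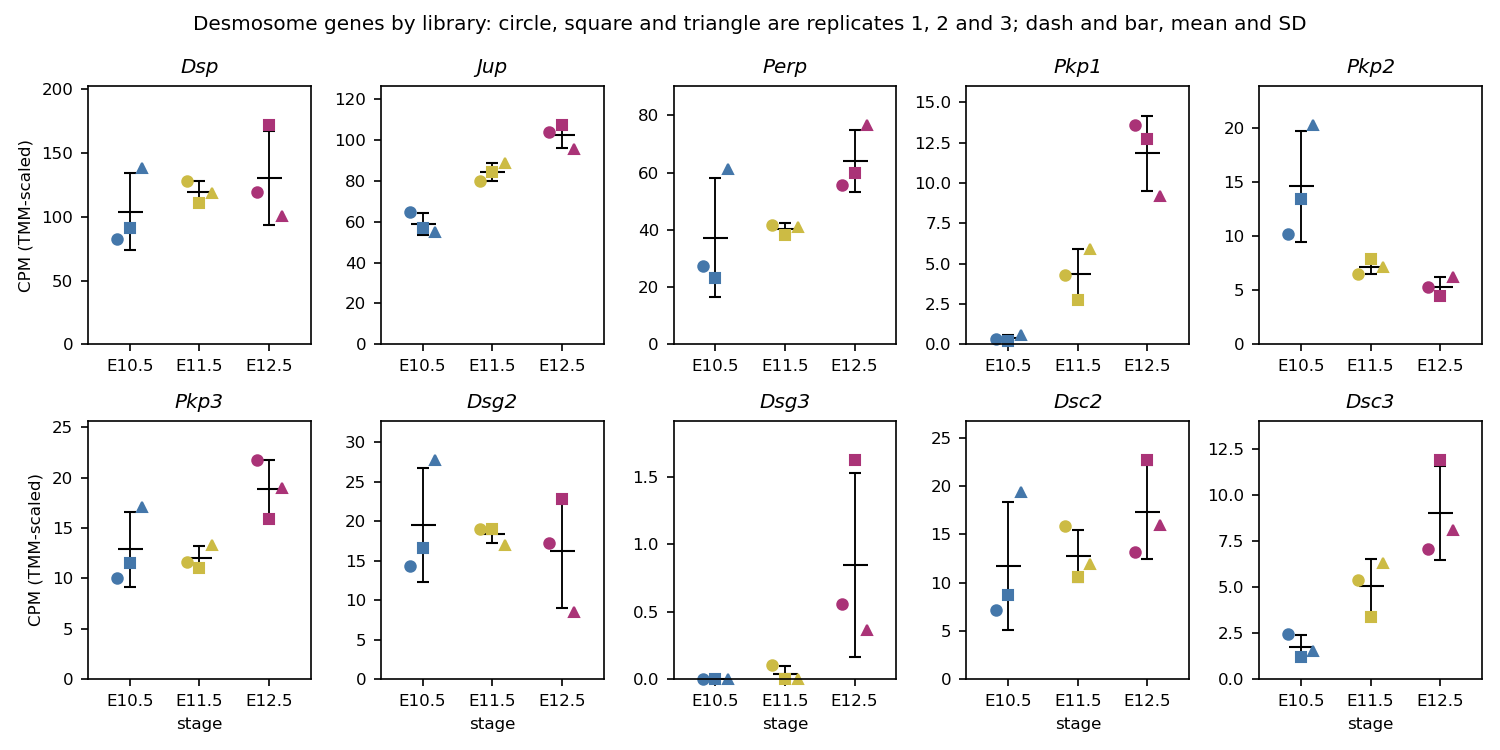
Level of each desmosome gene in each library, in TMM-scaled CPM from 0 on a linear axis that differs between panels, with the mean and SD of 3 libraries per stage. Pkp1 and Dsc3 climbed without overlap between E10.5 and the later stages, Pkp2 was highest at E10.5, and the triangle of E10.5 replicate 3 lay above the other E10.5 libraries for Dsp, Perp, Pkp1, Pkp2, Pkp3, Dsg2 and Dsc2 but not for Jup or Dsc3.

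Per kilobase, Perp, Dsp and Jup had the highest mean levels at every stage and Dsg3 the lowest. At E10.5 the order was Perp at 19.1 ± 10.7 (SD, n = 3), Dsp at 10.8 ± 3.12, Jup at 9.15 ± 0.823, Pkp3 at 3.56 ± 1.04, Pkp2 at 2.72 ± 0.959, Dsg2 at 2.36 ± 0.869, Dsc2 at 2.23 ± 1.26, Dsc3 at 0.321 ± 0.120, Pkp1 at 0.0754 ± 0.0326 and Dsg3 at 0 CPM per kilobase. The ranges of neighbours in this order overlapped from Perp through Jup and again from Pkp3 through Dsc2. At E12.5 Perp reached 32.8 ± 5.62, Jup 15.9 ± 0.932, Dsp 13.5 ± 3.82 and Pkp3 5.21 ± 0.813 CPM per kilobase. Dsc2 followed at 3.27 ± 0.925, Pkp1 at 2.35 ± 0.460, Dsg2 at 1.96 ± 0.869, Dsc3 at 1.67 ± 0.472, Pkp2 at 0.993 ± 0.159 and Dsg3 at 0.206 ± 0.165 CPM per kilobase, with overlapping neighbours from Dsc2 through Dsc3. Jup and Dsp overlapped as well at that stage. Pkp1 thus passed Pkp2 in the order, from rank 9 to 6, while Pkp2 went from rank 5 to 9.

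Dsp (ENSMUSG00000054889, GRCm38 chr13:38151294-38198577, plus strand) encodes desmoplakin, the plakin that anchors keratin. Its CPM was 82.4, 91.0 and 138.4 at E10.5, 128.5, 110.5 and 118.4 at E11.5, then 119.9, 171.8 and 100.3 at E12.5. All 3 stages overlapped, and the highest E10.5 library was replicate 3. The log2 fold change was 0.18 ± 0.19 (SE) for E11.5 vs. E10.5, 0.14 ± 0.18 for E12.5 vs. E11.5 and 0.33 ± 0.25 for E12.5 vs. E10.5, with adjusted p of 0.594, 0.639 and 0.377 in the quasi-likelihood test of edgeR, adjusted by Benjamini-Hochberg over all tested genes. When E10.5 replicate 3 was left out, the log2 fold change for E11.5 vs. E10.5 was 0.44 with an adjusted p of 0.000939, and that for E12.5 vs. E10.5 was 0.59 with an adjusted p of 0.0672. An antisense gene, Gm10129, overlaps 5.17% of the exon sequence of Dsp, and the sources do not say whether counting used strand.

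Jup (ENSMUSG00000001552, GRCm38 chr11:100368958-100397763, minus strand) encodes plakoglobin, the armadillo protein found in both desmosomes and adherens junctions. Its CPM was 64.9, 57.0 and 54.8 at E10.5, 79.9, 84.2 and 88.8 at E11.5, then 104.0, 107.1 and 95.5 at E12.5. No stage overlapped another, and E10.5 replicate 3 was the lowest library. Jup rose in E11.5 vs. E10.5 (log2 fold change 0.50 ± 0.11, adjusted p = 0.0237) and in E12.5 vs. E10.5 (0.79 ± 0.16, adjusted p = 0.00571), and its change in E12.5 vs. E11.5 was 0.28 ± 0.11 with an adjusted p of 0.129. All these changes were under the 1 log2 unit required of a differentially expressed gene (DEG). The E11.5 vs. E10.5 rise lost the test when E10.5 replicate 2 or any of the 3 E11.5 libraries was left out, with adjusted p up to 0.134, whereas the E12.5 vs. E10.5 rise kept it without each of the 6 libraries in turn. The changes without E10.5 replicate 3 were 0.45 (adjusted p = 0.00102) and 0.74 (adjusted p = 0.00625).

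Promoter windows are shown for Dsp and Jup, which had among the highest levels of the set. They were the only 2 of the 10 genes with an entry in the promoter sequences used here, taken from RefSeq on GRCm38.p6. Each window holds 250 bases before and 50 bases from the start annotated in RefSeq. The windows lie at chr13:38151044-38151343 on the plus strand for Dsp and at chr11:100397741-100398040 on the minus strand for Jup. For Dsp the RefSeq start is that of the gene coordinates given above. For Jup it lies outside those coordinates, on the upstream side. Capitals mark a match to a half-site of the p53 and p63 family.
Dsp: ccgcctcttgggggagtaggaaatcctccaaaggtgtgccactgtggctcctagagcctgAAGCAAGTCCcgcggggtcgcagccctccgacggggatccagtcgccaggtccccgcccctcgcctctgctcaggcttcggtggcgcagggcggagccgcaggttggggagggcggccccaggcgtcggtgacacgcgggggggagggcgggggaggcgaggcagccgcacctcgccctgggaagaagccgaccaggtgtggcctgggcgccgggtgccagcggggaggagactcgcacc
Jup: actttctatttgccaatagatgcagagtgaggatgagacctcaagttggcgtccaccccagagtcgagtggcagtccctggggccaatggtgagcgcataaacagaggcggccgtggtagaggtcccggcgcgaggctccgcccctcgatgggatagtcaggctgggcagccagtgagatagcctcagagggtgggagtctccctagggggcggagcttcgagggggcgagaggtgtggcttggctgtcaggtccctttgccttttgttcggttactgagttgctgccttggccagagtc
The Dsp window was 73.0% GC with 27 CpG dinucleotides, and the Jup window was 60.7% GC with 14, against medians of 53% and 7 over 32544 windows of the same length. The match in Dsp began at position -190 from the start, and such a match stood in 8.36% of all windows. Jup had none of the 3 motifs searched on both strands. The other motifs, the Grainyhead-like AACCNGTT and the AP-1 TGANTCA, were found in neither window and in 2.09% and 7.79% of all windows. A match is a description of letters, not evidence of binding.

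The plakophilins changed places. Pkp1 rose and Pkp2 fell, and Pkp3 kept the largest share of the family. These armadillo proteins stabilise the desmosomal plaque and gather desmoplakin to the membrane.

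Pkp1 (ENSMUSG00000026413, GRCm38 chr1:135871395-135919207, minus strand) encodes the plakophilin of the suprabasal layers of stratified epithelia. It had 6, 4 and 9 counts at E10.5, 80, 57 and 111 at E11.5, then 244, 235 and 153 at E12.5, or 0.352, 0.230 and 0.555 CPM, then 4.32, 2.77 and 5.89, then 13.6, 12.7 and 9.20. The stages did not overlap. The log2 fold change was 3.48 ± 0.43 for E11.5 vs. E10.5 (adjusted p = 0.00313), 1.46 ± 0.27 for E12.5 vs. E11.5 (adjusted p = 0.00572) and 4.95 ± 0.37 for E12.5 vs. E10.5 (adjusted p = 7.88e-06), all by edgeR. The E12.5 vs. E11.5 call was lost without E12.5 replicate 1, at a log2 fold change of 1.35 and an adjusted p of 0.0518. The other comparisons of Pkp1 passed the test whichever library was left out, and without E10.5 replicate 3 they gave 3.84 for E11.5 vs. E10.5 and 5.31 for E12.5 vs. E10.5. In these comparisons with E10.5, Pkp1 passed the filter on low counts only through the later stage. Their p-values are therefore no support apart from the counts themselves.

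Pkp2 (ENSMUSG00000041957, GRCm38 chr16:16213318-16272712, plus strand) encodes the plakophilin of simple epithelia and heart muscle. Its CPM was 10.1, 13.4 and 20.2 at E10.5, 6.48, 7.86 and 7.16 at E11.5, then 5.28, 4.49 and 6.19 at E12.5. Each E10.5 library lay above each later library, also without replicate 3. Pkp2 fell in E11.5 vs. E10.5 (log2 fold change -1.04 ± 0.26, adjusted p = 0.0375) and in E12.5 vs. E10.5 (-1.46 ± 0.29, adjusted p = 0.00416), and its change in E12.5 vs. E11.5 was -0.43 ± 0.19 with an adjusted p of 0.164. With E10.5 replicate 3 left out the values were -0.73 (adjusted p = 0.0039) and -1.15 (adjusted p = 0.00479), so the earlier of these no longer reached 1 log2 unit. The E11.5 vs. E10.5 test was also lost without E10.5 replicate 2 or any of the 3 E11.5 libraries, with adjusted p up to 0.164.

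Some heart muscle genes fell as well. Of 7 such genes (Myh6, Myh7, Tnnt2, Tnni3, Nppa, Myl7 and Actn2), 4 were tested in E12.5 vs. E10.5 and 3 fell, from Myl7 at -3.14 ± 0.87 on the log2 scale to Actn2 at -1.42, while Tnni3 had -0.45 ± 0.39. Those 3, Myl7, Myh7 and Actn2, passed the filter on low counts only through E10.5, where they were higher. Their E12.5 levels were 0 to 0.421, 0.0556 to 0.487 and 0.325 to 0.667 CPM. Their fitted falls are therefore no support apart from these low levels, and none of them was tested in E12.5 vs. E11.5. Their summed level was 5.48 to 5.64 CPM at E10.5, then 1.73 to 3.74 (E11.5) and 2.47 to 2.95 (E12.5), and Nppa had no count in any library. Myh6 and Tnnt2 were too low for the test and had slightly higher means at E12.5, at 0.234 and 0.281 CPM for Myh6 and 0.214 and 0.315 CPM for Tnnt2 (E10.5, then E12.5). Without E10.5 replicate 3, 2 of the 4 fell. The part of these cells in the fall of Pkp2 was not tested. In bulk tissue, fewer cells of a type and less RNA per cell cannot be told apart.

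Pkp3 (ENSMUSG00000054065, GRCm38 chr7:141078218-141090510, plus strand) encodes the plakophilin found in most simple and stratified epithelia. Its CPM was 10.02, 11.5 and 17.1 at E10.5, 11.7, 11.02 and 13.3 at E11.5, then 21.7, 15.9 and 18.9 at E12.5. The E12.5 libraries lay above all of E11.5, while E10.5 replicate 3 reached into their range. The log2 fold change was -0.12 ± 0.22 for E11.5 vs. E10.5 (adjusted p = 0.762), 0.66 ± 0.16 for E12.5 vs. E11.5 (adjusted p = 0.0253) and 0.55 ± 0.25 for E12.5 vs. E10.5 (adjusted p = 0.133). The last value became 0.81 without E10.5 replicate 3, with an adjusted p of 0.0158, and 0.33 after removal of a GC trend with all libraries (adjusted p = 0.463). The E12.5 vs. E11.5 rise was lost without any 1 of the 3 E11.5 libraries or without E12.5 replicate 1, with adjusted p from 0.0682 to 0.133, and in 2 of 8 other settings, the fit of all 9 libraries (adjusted p = 0.0824) and the removal of a GC trend (0.47, adjusted p = 0.0535), with adjusted p from 0.006 to 0.0824 over the 8.

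As a share of the 3 plakophilins per kilobase, Pkp1 went from 1.19% ± 0.349 (SD, n = 3) at E10.5 to 15.35% ± 4.1 a day later and 27.6% ± 5.20 at E12.5. Pkp2 went from 42.5% ± 2.16 to 24.5% ± 3.95 and 11.7% ± 2.08, and Pkp3 held 56.4% ± 1.93, 60.2% ± 0.721 and 60.7% ± 3.73. A ratio of paired genes inside a library needs no scaling between libraries, so the log2 ratio of counts was tested over all 1680 assignments of the 9 libraries to the stages. The log2 ratio of Pkp1 to Pkp2 was -4.74, -5.70 and -5.11 at E10.5, -0.58, -1.499 and -0.28 at E11.5, then 1.36, 1.496 and 0.57 at E12.5. It differed by 6.32 between E12.5 and E10.5 (exact permutation test across the 3 stages, p = 0.00357, adjusted p = 0.00714 over 4 ratios), and 0.00357 is the smallest p these assignments can give. The log2 ratio of Pkp3 to Pkp2 differed by 1.98 (exact permutation p = 0.00357, adjusted p = 0.00714), with stage means of -0.16, 0.74 and 1.82. Both ratios kept an adjusted p of at most 0.05 without each library in turn, and without E10.5 replicate 3 the differences were 6.36 and 1.94.

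**Figure D2:**
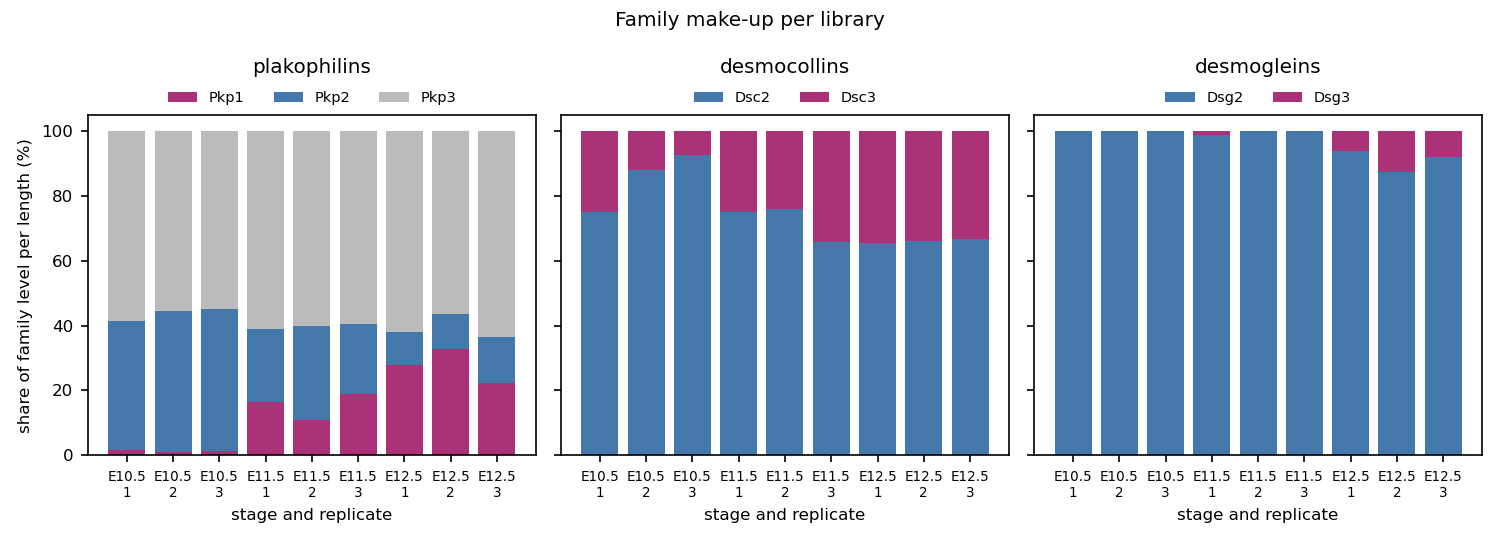
Share of each family's summed level per kilobase held by each gene, in percent, for the 9 libraries by stage and replicate (stacked bars from 0 to 100). The Pkp1 share is under 1.48% in the E10.5 libraries and at least 22.3% at E12.5, Dsc3 holds 33.1% to 34.4% in the E12.5 libraries, and Dsg3 holds at most 12.5%.

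The desmosomal cadherins all lie in a single cluster on chromosome 18 (GRCm38). From Dsc3 the order is Dsc3, Dsc2 and Dsc1 on the minus strand, then Dsg1c, Dsg1a, Dsg1b, Dsg4, Dsg3 and Dsg2 on the plus strand, with 132.5 kilobases between Dsc1 and Dsg1c and 16.8 to 38.5 kilobases between the other neighbours. The members at the ends of the cluster held most of the counts. Over all 9 libraries Dsg2 had 2921 counts, Dsc2 2246, Dsc3 859 and Dsg3 48, whereas Dsc1 and Dsg1c had 1 each and Dsg4 had 0. Dsg1a had 1, 7 and 65 counts summed over the libraries of E10.5, E11.5 and E12.5, and Dsg1b had 0, 3 and 33. Dsg1a, Dsg1b and Dsg1c are close copies of each other, so the split of reads between them is uncertain.

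Dsc3 (ENSMUSG00000059898, chr18:19960930-20002351) encodes the desmocollin of basal layers of stratified epithelia. Its CPM was 2.46, 1.21 and 1.54 at E10.5, 5.40, 3.40 and 6.32 at E11.5, then 7.06, 11.9 and 8.12 at E12.5. The stages did not overlap, and E10.5 replicate 3 was not the highest of its stage. Dsc3 rose in E11.5 vs. E10.5 (log2 fold change 1.51 ± 0.35, adjusted p = 0.0298) and in E12.5 vs. E10.5 (2.37 ± 0.34, adjusted p = 0.00061), and in E12.5 vs. E11.5 the value was 0.85 ± 0.27 with an adjusted p of 0.0607. That last value passed in 5 of 8 other settings, with adjusted p from 0.00236 to 0.115 over the 8. The E11.5 vs. E10.5 test was lost without E10.5 replicate 2, E11.5 replicate 1 or E11.5 replicate 3, with adjusted p up to 0.133, and the E12.5 vs. E10.5 test held without each library in turn. The changes without E10.5 replicate 3 were 1.43 (adjusted p = 0.00526) and 2.29 (adjusted p = 0.00125).

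Dsc2 (ENSMUSG00000024331, chr18:20030633-20059554) encodes the desmocollin present in nearly all desmosomes. Its CPM was 7.21, 8.69 and 19.4 at E10.5, 15.8, 10.6 and 11.9 at E11.5, then 13.2, 22.7 and 16.0 at E12.5. E10.5 replicate 3 was 2.43 times the mean of the other E10.5 libraries, the highest such ratio of the set. With all libraries the log2 fold changes were 0.10 ± 0.36 for E11.5 vs. E10.5, 0.44 ± 0.22 for E12.5 vs. E11.5 and 0.55 ± 0.35 for E12.5 vs. E10.5, with adjusted p of 0.884, 0.203 and 0.286 by edgeR. Without that library they were 0.66 for E11.5 vs. E10.5 (adjusted p = 0.0126) and 1.12 for E12.5 vs. E10.5 (adjusted p = 0.00887). The part of what sets that library apart in this difference was not tested.

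Dsc3 held 14.7% ± 9.22 (SD, n = 3) of the summed Dsc2 and Dsc3 level per kilobase at E10.5, then 27.65% ± 5.59 (E11.5) and 33.8% ± 0.614 (E12.5). The log2 ratio of Dsc3 to Dsc2 was -1.54, -2.82 and -3.62 at E10.5, -1.55, -1.63 and -0.92 at E11.5, then -0.90, -0.93 and -0.98 at E12.5. Its difference of 1.73 between E12.5 and E10.5 did not pass (exact permutation test across stages, p = 0.0607, also 0.0607 after adjustment). The E10.5 libraries were farther apart in this ratio than those of E12.5, and without E10.5 replicate 3 the difference was 1.24 and passed (exact permutation test, adjusted p = 0.0357). It passed as well without E10.5 replicate 1, E10.5 replicate 2 or E11.5 replicate 3.

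Dsg2 (ENSMUSG00000044393, chr18:20558074-20604521) encodes the desmoglein of simple epithelia and heart muscle. Its CPM was 14.3, 16.6 and 27.7 at E10.5, 19.0, 19.0 and 17.0 at E11.5, then 17.3, 22.8 and 8.54 at E12.5. The stages overlapped, and both the highest and the lowest library of the series were replicates 3, of E10.5 and of E12.5. The log2 fold change was -0.11 ± 0.24 for E11.5 vs. E10.5, -0.17 ± 0.27 for E12.5 vs. E11.5 and -0.27 ± 0.35 for E12.5 vs. E10.5, with adjusted p of 0.811, 0.712 and 0.620. Leaving out E10.5 replicate 3 gave changes from E10.5 of 0.23 to E11.5 and 0.071 to E12.5, with adjusted p of 0.147 and 0.893. An antisense gene, Gm16090, covers 3.99% of its exon sequence.

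Dsg3 (ENSMUSG00000056632, chr18:20510304-20541310) encodes the desmoglein of basal stratified layers. It had no count in any E10.5 library, 2, 0 and 0 counts at E11.5, and 10, 30 and 6 counts at E12.5. All E12.5 libraries therefore lay above all others. Against a floor of 3 counts over the E10.5 group, the E12.5 level was at least 14.6-fold higher, or at least 7.81-fold without E12.5 replicate 2, which held 30 of the 46 counts. The ratio of E12.5 to E11.5 was 25.1 with an exact 95% interval of 6.57 to 213.5 that covers counting error only. The gene was too low for the filter on low counts and so had no main test. In the fit of all genes with at least 1 count its adjusted p was 2.30e-06 for E12.5 vs. E10.5 and 3.19e-05 for E12.5 vs. E11.5, and in DESeq2 the values were 0.000397 and 0.00654. The gene was in these fits through its E12.5 counts, so these values are no support apart from the counts themselves. The edgeR fits of E12.5 vs. E11.5 with 1 library left out that kept the gene gave adjusted p from 0.0116 to 0.0751.

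Of the summed Dsg2 and Dsg3 level per kilobase, Dsg3 held none at E10.5, then 0.377% ± 0.653 (SD, n = 3, E11.5) and 8.82% ± 3.34 (E12.5). The log2 ratio of Dsg3 to Dsg2 averaged -9.31, -8.70 and -4.38 at the 3 stages, with 0.5 added to each count. The ratio differed across stages (exact permutation test, p = 0.025, adjusted p = 0.0333), and its values in libraries without a Dsg3 count depend on the added 0.5. The difference between E12.5 and E10.5 was 4.93 with 0.5 added and 3.11 with a count of 2 added (exact permutation test, adjusted p = 0.0333 for both). Without E10.5 replicate 3 this difference was 4.68 (exact permutation test, adjusted p = 0.0357). Dsg2 held the larger share of the pair in every library.

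Perp (ENSMUSG00000019851, GRCm38 chr10:18845020-18857073, plus strand) had CPM of 27.4, 23.1 and 61.1 at E10.5, 41.8, 38.1 and 41.1 at E11.5, then 55.8, 59.8 and 76.5 at E12.5. E12.5 lay above E11.5 without overlap, and E10.5 replicate 3 reached the E12.5 range at 2.42 times the mean of the other E10.5 libraries. Perp rose in E12.5 vs. E11.5 (log2 fold change 0.67 ± 0.14, adjusted p = 0.0115), which was lost without E11.5 replicate 2 or 3 (adjusted p 0.0824 and 0.0628) and in the fit of all 9 libraries (adjusted p = 0.173, in a range of 0.000489 to 0.173 over 8 other settings). For E11.5 vs. E10.5 the value was 0.10 ± 0.33 (adjusted p = 0.881) and for E12.5 vs. E10.5 0.78 ± 0.32 (adjusted p = 0.103). The last of these passed in 2 of 8 other settings, the fit of all genes with at least 1 count (adjusted p = 0.0032) and the replicate block (adjusted p = 0.0127). Both values from E10.5 became 0.65 (adjusted p = 0.000271) and 1.34 (adjusted p = 0.000684) without E10.5 replicate 3.

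Counted over the set, 9 of the 10 genes passed the filter on low counts in each comparison, and Pkp1, with under 10 counts in each E10.5 library, passed it in the comparisons with E10.5 only through the later stage. For E11.5 vs. E10.5, Pkp1 and Dsc3 were upregulated DEGs and Pkp2 a downregulated DEG, against 3.46% of all 15708 tested genes called up and 2.61% called down. With at least 10 counts required in every library Pkp1 was dropped, leaving 1 up and 1 down. At an adjusted p of at most 0.05 with no fold threshold, Jup joined the upregulated genes to make 3 up and 1 down, against 6.19% and 5.58% of all tested genes. For E12.5 vs. E11.5, Pkp1 was the single DEG, with 4.14% of 15808 tested genes called up and 0.962% called down. Without a fold threshold Pkp1, Pkp3 and Perp passed upward and none downward, against 7.61% and 4.57%. At an unadjusted p of at most 0.05, edgeR had 5 up and 1 down, against 16.3% and 13.3% of all tested genes.

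For E12.5 vs. E10.5, Pkp1 and Dsc3 were upregulated and Pkp2 downregulated DEGs, against 9.97% of 15899 tested genes called up and 5.08% called down. Pkp1 passed the filter there only through its E12.5 counts, and it is kept in these counts and in the median below. With Jup there were 3 up and 1 down at an adjusted p of at most 0.05, against 14.0% and 10.5%. Without E10.5 replicate 3 the same 9 genes gave 4 up and 1 down, with Perp and Dsc2 added, against 10.4% of 16501 tested genes called up and 6.23% called down in that fit. Dsg3 entered that fit through its E12.5 counts alone and is not counted. The median log2 fold change of the 9 genes tested was 0.10 for E11.5 vs. E10.5, 0.44 for E12.5 vs. E11.5 and 0.55 for E12.5 vs. E10.5, beside -0.03, 0.02 and -0.01 over all tested genes. Whether the change of a gene differed between the first and the second interval was tested in a fit of all 9 libraries, in which 0 of the 9 passed edgeR at an adjusted p of at most 0.05, beside 0.562% of 16375 tested genes in the upward and 0.623% in the downward direction. Pkp1 was the only gene of the 9 with an unadjusted p of at most 0.05 there (0.00437), where 6.41% of all tested genes had such a p upward and 5.55% downward, and its second change was smaller than its first by -2.01 ± 0.58 on the log2 scale (adjusted p = 0.139).

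**Figure D3:**
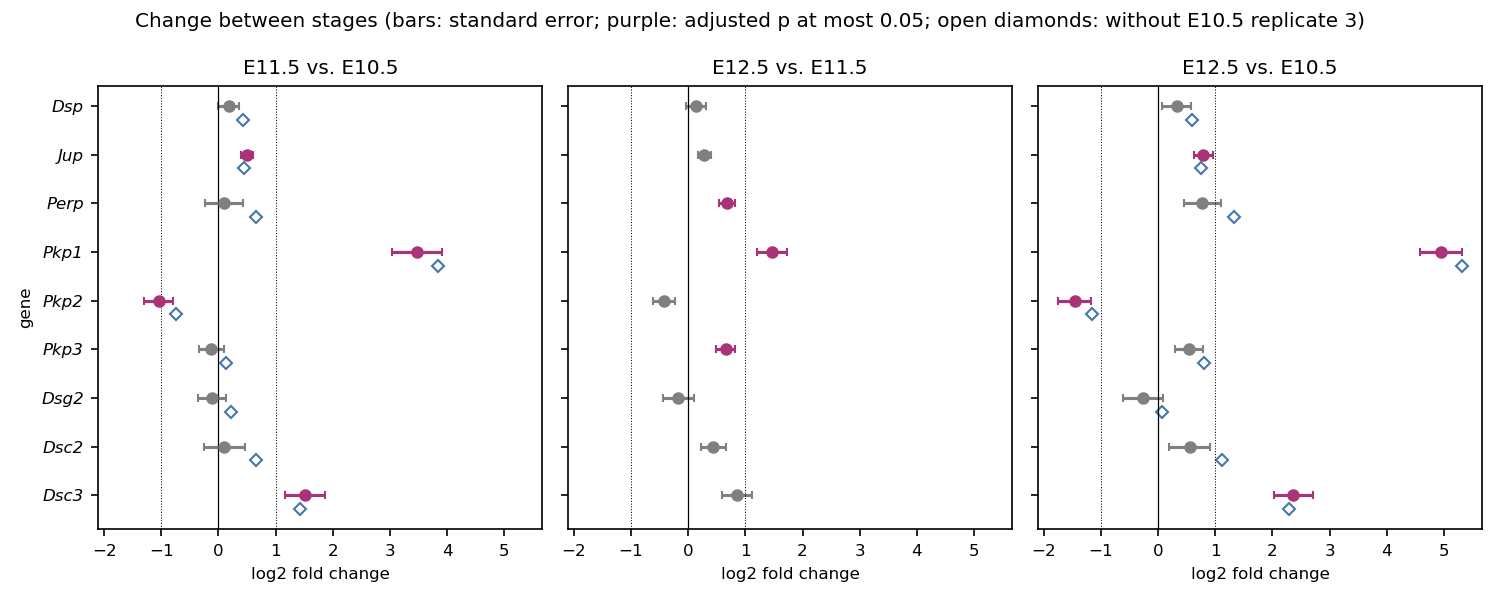
Log2 fold change of the 9 tested desmosome genes in each comparison (circles, bars are standard errors, purple where adjusted p is at most 0.05, dotted lines at 1 and -1), with the value without E10.5 replicate 3 as open diamonds. Leaving out that library moved Perp from 0.78 to 1.34 and Dsc2 from 0.55 to 1.12 in E12.5 vs. E10.5, and left Pkp1, Pkp2, Dsc3 and Jup past the test.

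The genes of the set were compared with the pan-epithelial genes of each library. The summed CPM of the 12 pan-epithelial genes was 539.3, 623.9 and 906.6 at E10.5, 461.7, 522.3 and 495.7 at E11.5, then 474.2, 478.7 and 569.0 at E12.5. Of the 9 desmosome genes with counts at E10.5, 7 were likewise higher in E10.5 replicate 3 than in the mean of replicates 1 and 2, and the exceptions were Jup at 0.899 and Dsc3 at 0.840 times that mean. In a measure added after these values had been seen, the log2 CPM of each gene was taken relative to the mean log2 CPM of the 12 genes. The exact permutation test over the 1680 assignments was run for 9 genes, and its p-values are not adjusted.

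The reference genes themselves were not level. Their mean log2 CPM was 5.35, 4.89 and 4.94 at the 3 stages, and Krt18, Cldn6 and Krt8 fell in E12.5 vs. E10.5. A gene with the same CPM at both stages therefore sat 0.41 log2 units higher at E12.5 on the relative scale. Over 16047 genes with counts in every library, the median difference between E12.5 and E10.5 was 0.41 and 76.5% of them were higher at E12.5. The 5th and 95th percentiles of that difference were -0.75 and 2.16. The values of the desmosome genes stand beside that median and that range. The permutation p-values test differences between the stages on this scale, not a departure from that median. The test was run for desmosome genes alone, so no share of all genes stands beside its p-values.

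On the relative scale Pkp1 was higher at E12.5 than at E10.5 by 5.45, Dsc3 by 2.82, Perp by 1.32 and Pkp3 by 0.99 log2 units (exact permutation p = 0.00357 for each, the smallest possible). Jup was higher by 1.21 (exact permutation p = 0.0107) and Dsc2 by 1.07 (exact permutation p = 0.0393). Pkp2 was at -0.997 (exact permutation p = 0.00357). Dsp at 0.74 (p = 0.0786) and Dsg2 at 0.09 (p = 0.639) did not pass the permutation test. Leaving out E10.5 replicate 3 lowered the median over all genes to 0.21 and gave 5.56 for Pkp1, 2.55 for Dsc3, 1.54 for Perp, 1.002 for Pkp3, 0.95 for Jup, 1.29 for Dsc2 and -0.94 for Pkp2, while Dsp had 0.76 (exact permutation p = 0.129) and Dsg2 0.16 (exact permutation p = 0.654). The SD of the E10.5 libraries was 0.04 for Dsp and 0.03 for Pkp3 on this scale, against 0.40 for both in log2 CPM, but it was 0.49 for Jup against 0.13.

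**Figure D4:**
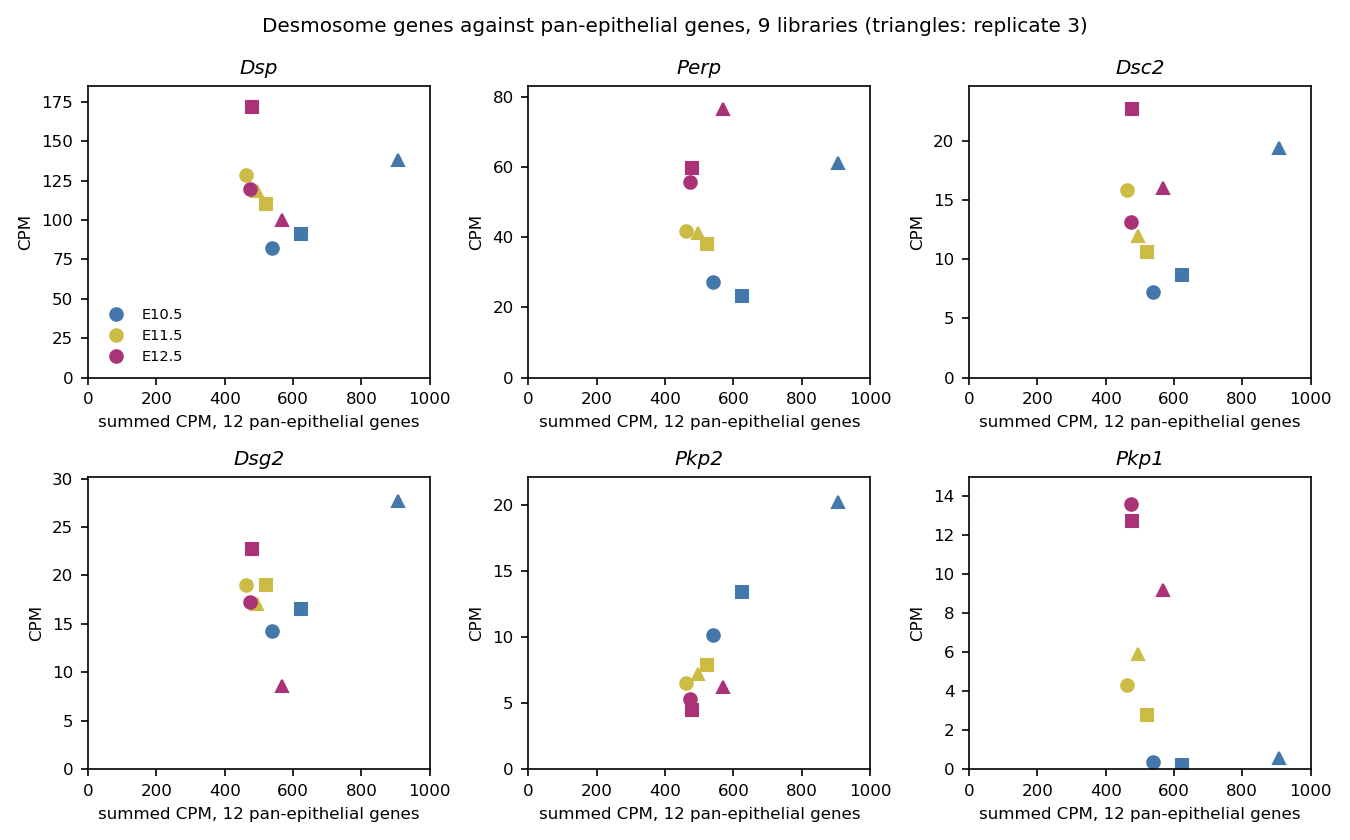
CPM of 6 desmosome genes against the summed CPM of 12 pan-epithelial genes in the 9 libraries (linear axes from 0, colours are stages, circle, square and triangle are replicates 1, 2 and 3). E10.5 replicate 3, at 906.6 on the horizontal axis, is apart from the other 8 libraries, at 461.7 to 623.9, and it is the highest library for Dsg2 and Pkp2 while Pkp1 stays at 0.555 CPM in it.

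Genes of the same junction and of neighbouring structures were read from the same fits, by lists. A few list genes had at most 3 counts over the E10.5 libraries and were tested only through their later counts, so they are given by their counts and left out of the counts of DEGs. Setting them at their bound or counting ratio did not change a list median. Of 8 other desmosome and plakin genes, 4 were tested in E12.5 vs. E10.5, with a median log2 fold change of 1.19, and 2 of the 3 with more counts were upregulated DEGs. Dsg1a went from 1 count at E10.5 to 65 at E12.5, a ratio of 62.02 with an exact 95% interval of 10.75 to 2487 that covers counting error only. The plakins periplakin (Ppl) and envoplakin (Evpl), which build the cornified envelope, rose by 1.12 and 1.25, and Pkp4 was lowest at 0.17 ± 0.17. Of 9 adherens junction genes, none was a DEG, 2 rose and 1 fell at an adjusted p of at most 0.05, and the median was -0.21. In that list Nectin4 was highest at 0.99 ± 0.24 and Afdn, which anchors nectins to actin, lowest at -0.96 ± 0.22.

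Of 8 hemidesmosome genes, whose products fix basal cells to the basement membrane, 3 were upregulated DEGs and the median was 0.69. Lama3 had the highest fitted value at 4.63 ± 0.38 and is counted among the 3 DEGs. At 0.234 to 0.370 CPM in the E10.5 libraries, it passed the filter only through its E12.5 counts, so its call is no support apart from these levels. Col17a1 and Itgb4 rose by 4.42 and 1.79, and Itga6 fell by 0.81 on the log2 scale. Of the 9 basal and stratified keratins 7 were tested, with a median of 3.80, and the 6 other than Krt6a were all upregulated DEGs, from Krt10 at 1.09 ± 0.25 to Krt5 at 6.16. Among them Krt17, at 0.431 to 0.748 CPM in the E10.5 libraries, needed its E12.5 counts to pass the filter. Krt1 was low at E10.5 as well, at 0.576 to 1.11 CPM. Krt6a had 0 counts at E10.5 and 91 at E12.5, at least 28.9-fold higher against the floor of 3 counts over the group. Of the 12 pan-epithelial genes none was upregulated and Krt18 was a downregulated DEG at -1.02 ± 0.23, with a median of -0.44 and Spint2 highest at 0.35 ± 0.20. The 12 epithelial transcription factors had a median of 0.47 with Grhl2 lowest at -0.60 ± 0.27 (adjusted p = 0.134), and 2 of the 11 other than Ehf were upregulated DEGs. Ehf went from 1 count to 246, a ratio of 234.7 with an exact 95% counting interval of 41.7 to 9308. Without E10.5 replicate 3 the upregulated DEGs were the same in number for the other desmosome, hemidesmosome (Lama3 included) and keratin lists, at 2, 3 and 6, but 1 adherens junction gene and 4 transcription factors were called up and no pan-epithelial gene was called down.

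**Figure D5:**
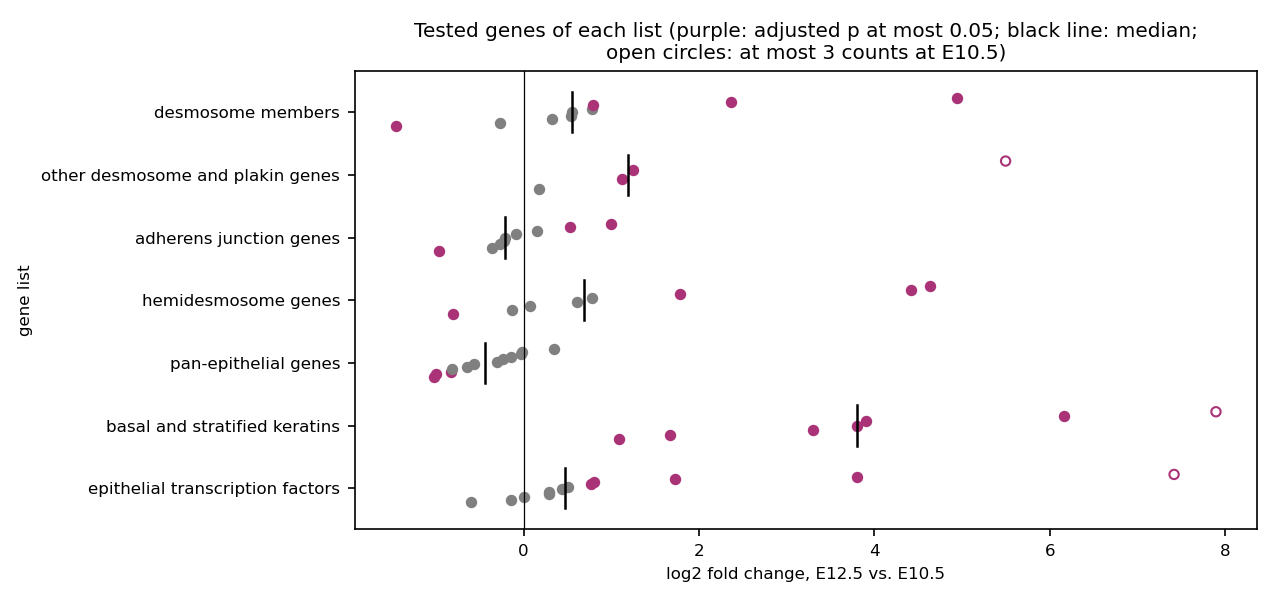
Log2 fold change for E12.5 vs. E10.5 of the tested genes of 7 lists (each point is a gene, purple where adjusted p is at most 0.05 by edgeR, black lines are list medians, open circles are genes with at most 3 counts at E10.5, whose fitted values are no measure of size). The desmosome genes spread from -1.46 to 4.95 around a median of 0.55, between the pan-epithelial genes with a median of -0.44 and the keratins with a median of 3.80.

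Calls between consecutive stages were read from the same epithelial and junction lists. In E11.5 vs. E10.5 the DEGs were 2 of 6 tested keratins (Krt5 and Krt15), 1 of 7 hemidesmosome genes (Col17a1) and 1 of 11 transcription factors (Klf4) upward, and 2 pan-epithelial genes (Krt18 and Krt19) downward. In E12.5 vs. E11.5 they were 5 of the 6 keratins other than Krt6a (1 count at E11.5), 2 of 8 hemidesmosome genes (Lama3 and Lamb3) and 1 of the 11 transcription factors other than Ehf (Klf4) upward. None was downward in these lists. Ehf (37 counts, then 246) and Dsg1a (7 counts, then 65) are given by their counts and left out of the DEGs. Lama3, Ehf and Dsg1a were not tested in E11.5 vs. E10.5 and passed the filter here only through their E12.5 counts. The call of Lama3 is therefore no support apart from its counts. The adherens junction list had no DEG in either interval.

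Markers of other cell types in the tissue moved as well. In E12.5 vs. E10.5, 4 of 6 mesenchyme genes rose, with a median of 0.96 and a summed level of 1225 to 2026 CPM at E10.5 and 4003 to 4194 at E12.5. Of 6 neuronal genes Stmn2 rose (2.61), and the summed level was 152.4 to 188.5 CPM at E10.5 and 271.4 to 314.7 at E12.5. Of 5 endothelial genes none passed edgeR, also at an unadjusted p of at most 0.05, with summed levels of 103.8 to 255.4 and 204.7 to 273.7 CPM. Of 4 macrophage genes C1qa rose, with sums of 14.6 to 22.2 and 23.4 to 26.7 CPM. The part of these shifts in the levels of the desmosome genes was not tested.

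Across the 9 libraries the genes of the set did not follow a common course. The correlation of a gene's log2 CPM with the mean profile of the others was 0.87 for Dsc2, 0.83 for Perp, 0.82 for Dsp, 0.70 for Pkp1, 0.67 for Pkp3, 0.59 for Dsc3, 0.53 for Jup, 0.10 for Dsg2 and -0.61 for Pkp2. Jup and Pkp1 (0.96), Jup and Dsc3 (0.96) and Pkp1 and Dsc3 (0.95) were the most alike pairs, and Jup and Pkp2 (-0.95) the most opposed. Of 11535 genes with a mean of at least 5 CPM outside the set, those most like the mean profile of the 9 genes were Oxr1, Erc2, Rab15, Fam8a1, Tex15, Ehbp1, Tdrd3, Vwa5a, Angpt1 and Tmem106b, at correlations of 0.976 down to 0.962. All 10 were also higher in E10.5 replicate 3 than in the mean of the other E10.5 libraries, by 1.28 to 2.16 times. The profile was itself made from genes mostly higher in that library, so this followed in part from how the 10 were picked. These correlations describe 9 libraries that share their stages and depth, and carry no test.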

How the data were processed

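The 9 RNA-seq libraries were made from the lambdoidal junction of C57BL/6J embryos, 3 pools per stage. Per the study's methods, the authors mapped reads to GRCm38/mm10 with HISAT2 2.0.5 and assigned them to genes with featureCounts. Strand and multiply mapped reads are not described in the sources used here. The deposited count columns hold raw whole-number counts of each gene in each library. The deposited FPKM columns, the authors' group means (a signal), and their log2 fold change and p-value columns from DESeq2 were not used.

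Depth was 16959676, 17533014 and 17756251 counts at E10.5, 18280441, 20836804 and 18820279 at E11.5 and 17030254, 17919664 and 16581009 at E12.5. Intervals and floors cover counting error only, since reads carried no molecular identifiers.

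Every stage pair had its own fit of 6 libraries in R 4.3.3 with edgeR 4.0.16 (filterByExpr, TMM, quasi-likelihood test, Benjamini-Hochberg adjustment over all tested genes), after a test on simulated data. DEGs had an adjusted p of at most 0.05 with a log2 fold change of 1 or more in either direction. With 3 libraries against 3, permutation alone cannot reach that threshold for a pair of stages. Ratios and relative levels used log2 values and exact permutation over the 3 stages in Python 3.11.15 with scipy 1.17.1, with a prior count of 0.5 for ratios. GC content came from GENCODE vM21. Alternatives were DESeq2 1.42.0, other scalings, filters and designs, and each library left out. All 10 members are named in each comparison. Each list is given by its counts, its median and its genes with the highest and lowest change in E12.5 vs. E10.5. Likeness was the Pearson correlation with the mean standardised profile of the 9 members that passed the filter. The members and lists were chosen with earlier results of these data known. The gene list names given beyond this rule were chosen after their values were seen. The results of 1 marker list are not reported here.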

Additional observations from a re-analysis of the deposited data

How the results depend on the processing

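Leaving out each library in turn gave 1 to 3 called genes for E11.5 vs. E10.5, with 1 without E10.5 replicate 2, E11.5 replicate 1 or E11.5 replicate 3. For E12.5 vs. E11.5 it gave 0 to 2, with 0 without E12.5 replicate 1 and 2 without E11.5 replicate 1 or E12.5 replicate 3, and for E12.5 vs. E10.5 it gave 3 to 6, with 6 without E10.5 replicate 3. For E12.5 vs. E11.5, DESeq2 called 2, the fit of all genes with at least 1 count called 2, and no fold threshold gave 3. Dsg3, which then passed the filter through its E12.5 counts or needed none, is 1 of the genes in each of these counts of 6 and 2. Shares of all tested genes called were taken only in the main fits and in E12.5 vs. E10.5 without E10.5 replicate 3. For the other settings here and below, a changed count is not told apart from a change in calls over all genes. In the fit of all genes with at least 1 count, 1 gene (Pkp1) differed between the intervals (adjusted p = 0.00861). The Dsc3 to Dsc2 ratio ranged over 1.24 to 2.29 without 1 library, with an adjusted p of 0.0143 to 0.0464 without E10.5 replicate 1, 2 or 3 or E11.5 replicate 3. Genes that were not called changed sign when 1 library was left out. For E11.5 vs. E10.5 the ranges were -0.15 to 0.66 for Dsc2, -0.16 to 0.65 for Perp, -0.27 to 0.13 for Pkp3 and -0.29 to 0.23 for Dsg2. For E12.5 vs. E11.5 they were -0.11 to 0.29 for Dsp and -0.50 to 0.13 for Dsg2, and for E12.5 vs. E10.5 -0.59 to 0.071 for Dsg2. Outside leave-one-out, 207 of the other values kept their direction and side of the adjusted p threshold. Another 8 came to pass it and 4 no longer did, and the cause was not tested. The fold threshold is not used in this tally. Pkp2 for E11.5 vs. E10.5 in the replicate block, at -0.99 and no longer a DEG, is therefore among the 207. With a minimum of 10 counts in every library, Pkp1 was dropped from the comparisons with E10.5.

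Same-numbered libraries deviated together with correlations of -0.01 to 0.02 for E10.5 with E11.5, 0.07 to 0.22 for E10.5 with E12.5 and -0.15 to 0.07 for E11.5 with E12.5. Since no pair of stages had every correlation over 0.1, the numbers were not taken to pair the libraries. With the replicate block, 2, 1 and 3 genes were called in the 3 comparisons and 0 differed between the intervals. Pkp2 was then at -0.99 for E11.5 vs. E10.5, Jup lost that test (adjusted p = 0.078), and Dsc3 in E12.5 vs. E11.5 (adjusted p = 0.0257) and Perp in E12.5 vs. E10.5 (adjusted p = 0.0127) gained it.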
